A study of Homo sapiens with 4 samples.

Results

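The genes described here are 41 members of 3 linked programmes, which are glycolysis with its transporters and controls, the pentose phosphate pathway, and the response to hypoxia. They were taken from a list by symbol, out of 27658 gene identifiers with a value in the series. Of the 41, 40 were listed in both lines and CA9 in PC-3 only. The list was drawn up with earlier results of these data known, among them that the lines moved in different directions, so that difference is described here and supports nothing.

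RNA sequencing was run on 2 human prostate cancer cell lines, each kept for 48 h in OICR-9429 or in DMSO, the solvent. The compound occupies a pocket of WDR5, an adaptor of histone H3 lysine 4 methyltransferase complexes, and blocks its contact with MLL. The treated DU145 cells received 120 µM and the treated PC-3 cells 150 µM, and the controls of each line DMSO alone. DU145 grew in DMEM and PC-3 in RPMI1640, so dose and medium differ with the line, and how much glucose the media held is not stated in the labels. DU145 and PC-3 are established lines from metastases that grow without androgen. Each combination of line and treatment has 1 library, and no replicate checks a difference seen inside a line.

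Cells split glucose to pyruvate in 10 enzymatic steps, and lactate dehydrogenase then turns pyruvate into lactate, while the pentose phosphate pathway draws glucose 6-phosphate away to make NADPH and ribose. Hypoxia-inducible factor (HIF), a dimer of an oxygen-labile alpha subunit and ARNT, raises many glycolytic genes and others such as VEGFA when oxygen is low. Prolyl hydroxylases of the EGLN family mark the alpha subunits for destruction when oxygen is present. HIF binds DNA at a short core written ACGTG or GCGTG. The glycolytic genes are also known targets of MYC and of other factors that bind CACGTG.

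The libraries held 27591000 to 29312000 read pairs. Mitochondrially encoded genes took 5.54% to 6.38% of reads. The line labels matched the known losses of PC-3: CTNNA1 was measured at 499 and 656 CPM in DU145 and in PC-3 at 2.73 and 3.45 CPM (DMSO, then OICR-9429). KRT8, an epithelial keratin, stood between 219 and 561 CPM in all 4. Of 8 markers of blood, endothelial and stromal cells, 5 were listed in each library, and CD3E and DCN in none. Their summed level was 15.2 and 7.24 CPM in DU145, against 87.8 and 44.8 CPM in PC-3 (DMSO, then OICR-9429), with COL1A1 at 68.1 and 16.8 CPM and PECAM1 at 18.2 and 27.2 CPM in PC-3. This sum was lower in both treated libraries, and its part in the results was not tested. Levels are given in CPM, the reads of a gene as a share of all counted reads, on a scale where the genes of a library sum to between 999788 and 999896. Where 2 values follow each other, the DMSO library comes first. A change is the difference of log2(CPM + 1), OICR-9429 minus DMSO. A member is called higher or lower by 2-fold where that difference reaches 1 in size and the higher library has at least 1 CPM. The 95% interval beside a ratio of CPM is exact and takes in counting error alone. CPM is a share of the library, so fewer transcripts per cell and a larger total of other RNA cannot be told apart.

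Promoter windows of RefSeq (GRCh38.p14), each from 250 bases before to 50 bases after a transcription start, were matched by symbol for 37 of the 41 members. SLC2A3, VEGFA, BNIP3L and NDRG1 were not matched. The 6 windows printed first belong to the members that differed most between the lines among those considered for printing and past 2-fold, and that hold the HIF core on either strand, shown in capitals. PGAM1, the 1 such member without these letters, is printed last. They lie at chr10:72273674-72273973, plus strand (DDIT4), chr11:18394313-18394612, plus strand (LDHA), chrX:78103998-78104297, plus strand (PGK1), chr2:172555840-172556139, plus strand (PDK1), chr2:74834920-74835219, plus strand (HK2), chr15:72231141-72231440, minus strand (PKM) and chr10:97427568-97427867, plus strand (PGAM1). All are written 5′ to 3′ in the direction of the gene.
DDIT4: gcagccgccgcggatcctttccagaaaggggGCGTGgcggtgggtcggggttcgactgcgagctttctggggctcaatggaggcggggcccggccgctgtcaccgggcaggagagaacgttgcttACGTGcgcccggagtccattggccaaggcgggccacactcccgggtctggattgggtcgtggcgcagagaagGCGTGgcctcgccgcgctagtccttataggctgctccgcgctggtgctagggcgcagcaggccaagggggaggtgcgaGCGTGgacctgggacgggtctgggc
LDHA: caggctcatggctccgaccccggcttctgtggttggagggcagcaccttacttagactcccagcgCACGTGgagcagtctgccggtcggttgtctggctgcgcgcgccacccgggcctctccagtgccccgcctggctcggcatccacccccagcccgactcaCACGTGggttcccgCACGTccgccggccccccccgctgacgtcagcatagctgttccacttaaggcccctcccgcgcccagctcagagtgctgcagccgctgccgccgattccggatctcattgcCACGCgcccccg
PGK1: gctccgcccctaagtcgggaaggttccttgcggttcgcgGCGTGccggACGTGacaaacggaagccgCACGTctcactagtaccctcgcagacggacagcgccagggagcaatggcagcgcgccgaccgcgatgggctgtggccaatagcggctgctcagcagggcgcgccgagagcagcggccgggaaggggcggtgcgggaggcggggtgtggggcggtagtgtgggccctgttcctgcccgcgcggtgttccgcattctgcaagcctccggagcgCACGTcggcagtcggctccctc
PDK1: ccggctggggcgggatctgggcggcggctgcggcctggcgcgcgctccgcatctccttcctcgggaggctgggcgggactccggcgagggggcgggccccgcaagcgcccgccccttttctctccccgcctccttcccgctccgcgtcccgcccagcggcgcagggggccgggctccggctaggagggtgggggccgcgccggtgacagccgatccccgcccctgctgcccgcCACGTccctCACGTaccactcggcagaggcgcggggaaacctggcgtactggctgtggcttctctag
HK2: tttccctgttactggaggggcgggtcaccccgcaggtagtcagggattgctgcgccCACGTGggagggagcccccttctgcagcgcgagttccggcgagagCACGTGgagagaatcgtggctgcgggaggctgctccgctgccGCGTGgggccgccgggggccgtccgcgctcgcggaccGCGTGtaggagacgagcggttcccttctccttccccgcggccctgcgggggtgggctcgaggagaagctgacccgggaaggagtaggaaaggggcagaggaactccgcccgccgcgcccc
PKM: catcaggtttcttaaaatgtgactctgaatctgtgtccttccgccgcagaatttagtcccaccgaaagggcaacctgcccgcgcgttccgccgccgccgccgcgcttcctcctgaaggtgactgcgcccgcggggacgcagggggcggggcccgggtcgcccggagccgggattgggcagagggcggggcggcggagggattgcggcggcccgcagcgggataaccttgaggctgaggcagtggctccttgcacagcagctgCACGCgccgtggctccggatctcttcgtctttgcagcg
PGAM1: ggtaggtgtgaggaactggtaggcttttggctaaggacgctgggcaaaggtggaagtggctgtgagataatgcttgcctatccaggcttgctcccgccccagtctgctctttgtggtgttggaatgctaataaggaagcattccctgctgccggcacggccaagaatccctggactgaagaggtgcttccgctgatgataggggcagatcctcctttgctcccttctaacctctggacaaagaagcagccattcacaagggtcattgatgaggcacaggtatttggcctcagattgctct

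The capitals in LDHA and HK2 include CACGTG, at 2 places in each window. Each CACGTG holds ACGTG on both strands and counts there as 2 matches. By this count LDHA and HK2 hold 6 matches each, PGK1 and DDIT4 4, PDK1 2 and PKM 1. Over all 66 windows of the members, 65.2% held ACGTG or GCGTG, against 48.4% of all 35116 windows in the table. These windows belong to 37 members, and HK1 and PFKM have 7 each. The list includes genes taken as known HIF targets, so these shares describe the list and support nothing. ACGTG was present in 40.9% against 21.4%, and CACGTG in 13.6% against 7.26%. The members' windows were also richer in G and C, with a median of 69.7% against 58.7%, and that part of the difference was not tested. Members higher and members lower with OICR-9429 both held the letters. A match is a description of these letters, and says nothing of whether a factor was bound, and no match says only that the letters are not in the window.

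Of the 15 genes of the 10 glycolytic steps, 13 stood above their DMSO level with OICR-9429 in DU145, and 13 stood below it in PC-3. Over all genes at 1 CPM or more, 5631 of 16120 stood above it in DU145 and 7389 of 14623 below it in PC-3. Among genes over 100 CPM on average these counts were 1453 of 2454 and 1215 of 2365. Across 39 members at 1 CPM or more, the median change was 0.34 in DU145 and −0.40 in PC-3. All genes at that level had medians of −0.18 and −0.01. Among highly expressed genes, those over 100 CPM on average, members had medians of 0.40 (28 members) and −0.49 (26), against 0.08 and −0.02 for all such genes. In DU145, 5 of 39 members were higher by 2-fold (HK2, PFKFB4, LDHA, NDRG1 and PGK1) and 0 lower, where 0.999% of all 16120 genes were higher and 8.01% lower (9.01% in either direction). In PC-3 2 were higher (DDIT4 and NDRG1) and 8 lower (LDHA, PDK1, PGAM1, PGK1, ENO1, TPI1, PKM and GPI), where 7.15% of 14623 genes were higher and 8.68% lower (15.8% in either direction). The threshold fell close to some members: in DU145 PGK1 lay just inside at 1.00 and PDK2 just outside at −0.95, and in PC-3 GPI lay just inside at −1.01 and PFKP just outside at −0.91.

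**Figure D1:**
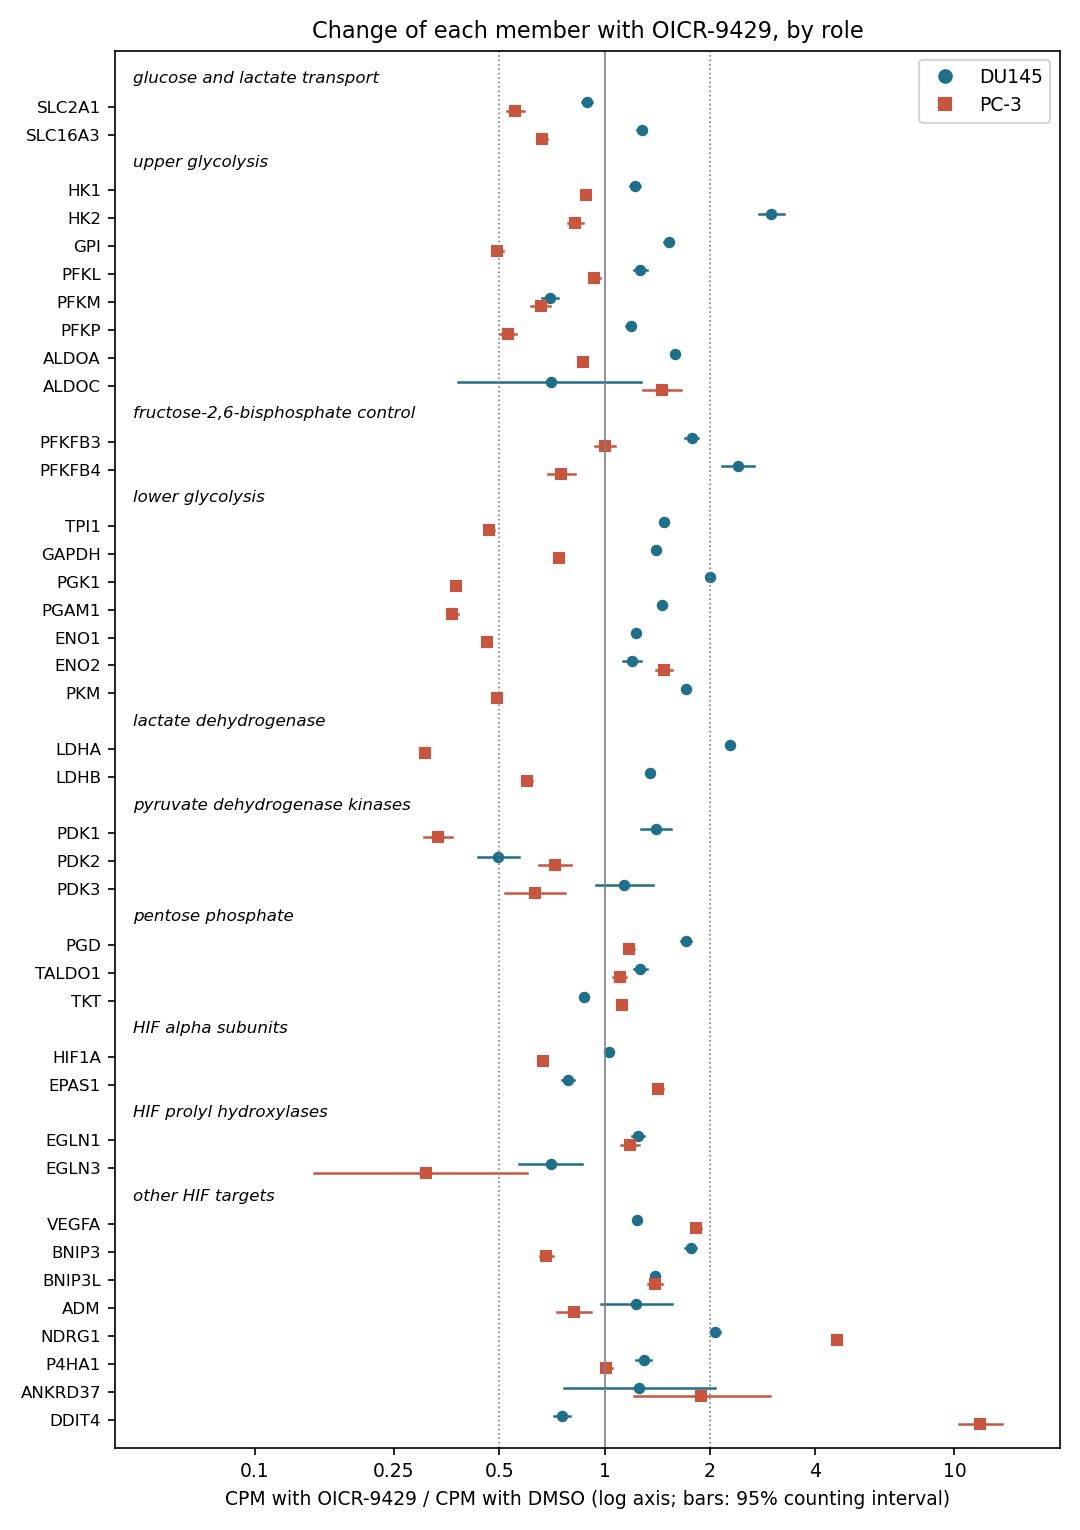
Ratio of CPM with OICR-9429 to CPM with DMSO on a log axis for the 39 members at 1 CPM or more in each line, grouped by role; circles are DU145, squares PC-3, bars the 95% counting interval, and dotted lines mark 2-fold. From TPI1 to LDHB, DU145 lies right of 1 for every gene and PC-3 left of 1 for every gene except ENO2.

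Scaling shifts the DU145 values. Median-of-ratios scaling raised DU145 changes by 0.23 and TMM scaling by 0.22, while in PC-3 the shifts were −0.02 and 0.03. Among all called DU145 genes the share that was higher was 11.1% as deposited, 28.4% under median-of-ratios and 26.9% under TMM. With median-of-ratios scaling 9 of 38 members were higher by 2-fold in DU145, the added ones being BNIP3, PFKFB3, PGD and PKM. Of all genes, 330 of 16019 were higher under this scaling, against 161 of 16120 as deposited. Under these scalings SLC2A1 and TKT turned from lower to slightly higher in DU145, and under median-of-ratios PFKFB3 and P4HA1, both at 0.00 to 0.02 in PC-3, turned to −0.02 and −0.01. The other members at 1 CPM or more kept their sign in both lines under these scalings.

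Transport came first along the pathway. SLC2A1, the basal glucose transporter GLUT1, was measured in DU145 at 276 (DMSO) and 246 CPM (OICR-9429), and in PC-3 at 129 and 71.6 CPM. The ratio in PC-3 was 0.556 (0.526 to 0.587). Per kilobase of exon, SLC2A1 was at 58.5 and SLC2A3, which encodes the neuronal transporter GLUT3, at 0.135 CPM in the DU145 DMSO library. SLC2A3 rested on 23 and 2 read pairs in DU145 and on 1 and 4 in PC-3, so its ratios of 0.0843 (0.00964 to 0.341) and 4.22 (0.417 to 208) are loose. SLC16A3, the lactate exporter MCT4, was measured at 269 and 344 CPM in DU145 and in PC-3 at 387 and 257 CPM. Its ratio was 1.28 (1.24 to 1.32) in DU145 and 0.664 (0.645 to 0.684) in PC-3, so the lines went opposite ways. SLC16A3 shares exon sequence on the opposite strand with CSNK1D, which stood between 148 and 162 CPM in all 4 libraries.

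The first enzymes of glycolysis differed between isoforms. HK2 (ENSG00000159399), the inducible hexokinase, was measured at 28.0 and 83.9 CPM in DU145 (ratio 2.99, interval 2.76 to 3.25), and in PC-3 at 132 and 109 CPM (ratio 0.826, interval 0.787 to 0.866). HK1, the housekeeping hexokinase, was measured at 231 and 283 CPM in DU145 and in PC-3 at 524 and 463 CPM. The ratio of HK2 to HK1 within a library, which no scaling can move, went from 0.121 to 0.296 in DU145 and from 0.251 to 0.235 in PC-3. GPI, which isomerises glucose 6-phosphate, was measured at 242 and 369 CPM in DU145 and in PC-3 at 291 and 144 CPM (ratio 0.494, interval 0.475 to 0.513). The GPI call in PC-3 was lost under TMM scaling, at −0.98.

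Phosphofructokinase, the committed step, has 3 isoform genes that did not move together. PFKM, the muscle form, was lower in both lines, at 123 and 85.8 CPM in DU145 and in PC-3 at 81.8 and 53.7 CPM. PFKL, the liver form, was measured at 139 and 176 CPM in DU145 and in PC-3 at 234 and 219 CPM. PFKP, the platelet form, was measured at 304 and 361 CPM in DU145 and in PC-3 at 154 and 81.7 CPM. Relative to PFKL, PFKM went down to 0.553 of its DMSO ratio in DU145 and to 0.702 in PC-3, and PFKP to 0.940 and 0.567. PFKM overlaps SENP1 on the opposite strand, which had 65.6 and 51.1 CPM in DU145, and in PC-3 44.7 and 32.5 CPM. With the strand setting of the counting not given, reads from the shared stretch cannot be told apart between the pair.

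PFKFB3 and PFKFB4 encode bifunctional enzymes that set fructose 2,6-bisphosphate, the activator of phosphofructokinase. PFKFB3 was measured at 117 and 207 CPM in DU145 (ratio 1.77, interval 1.70 to 1.85), and in PC-3 at 67.2 and 67.3 CPM (ratio 1.00, interval 0.940 to 1.07). PFKFB4 was measured at 18.8 and 45.3 CPM in DU145 (ratio 2.40, interval 2.17 to 2.67), and in PC-3 at 42.7 and 32.2 CPM (ratio 0.753, interval 0.690 to 0.821). Both were thus higher in treated DU145, and in PC-3 PFKFB3 was level while PFKFB4 was lower. ALDOA, the main aldolase, was measured at 895 and 1421 CPM in DU145 and in PC-3 at 955 and 831 CPM. ALDOC, the brain aldolase, was near 1 CPM in DU145 (1.05 and 0.738) and stood at 14.3 and 20.9 CPM in PC-3, where it was higher while ALDOA was lower.

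**Figure D2:**
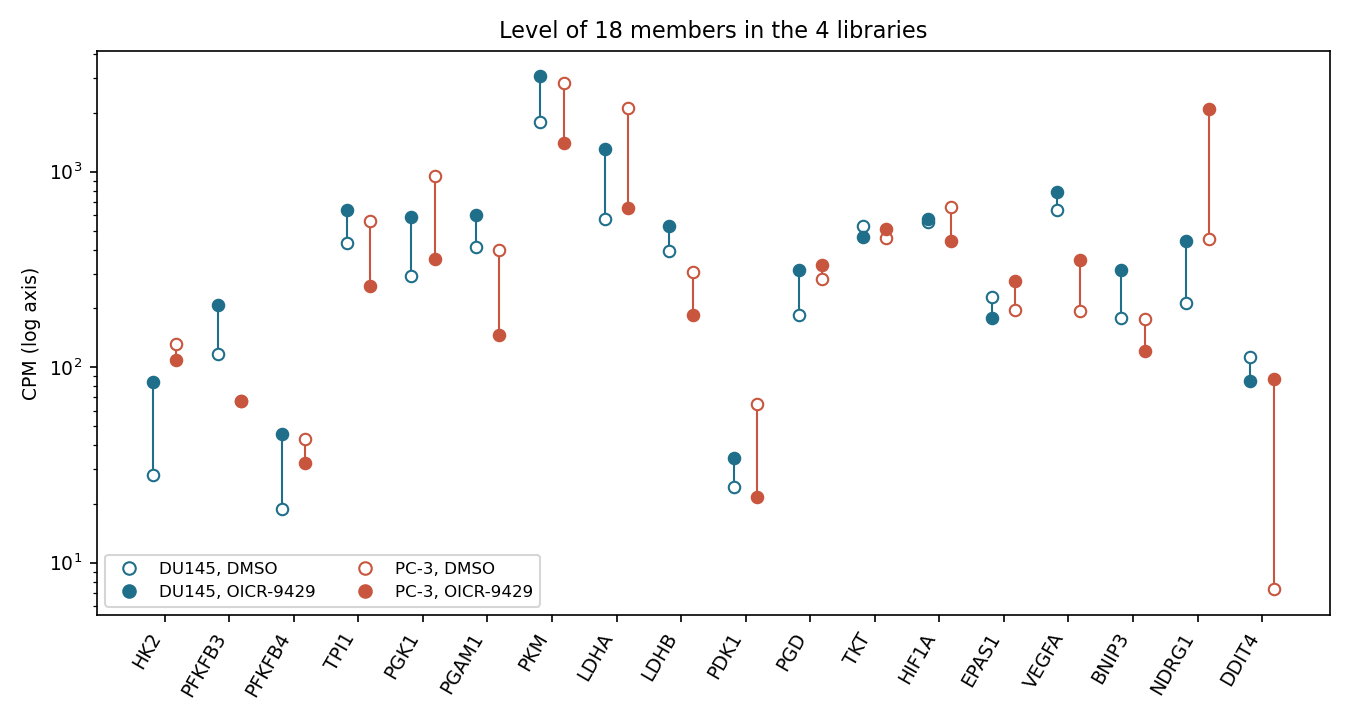
CPM on a log axis for 18 members in each library; open circles are DMSO, filled circles OICR-9429, and a line joins the pair of 1 cell line. For PGK1, PKM and LDHA the treated DU145 library lies above its control and the treated PC-3 library below its control, with the order of the lines exchanged.

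Lower glycolysis, from triose phosphates to pyruvate, went one way in DU145. All 7 genes were above their DMSO level in DU145 (median change 0.55, range 0.26 to 1.00). In PC-3 6 of the 7 were below it and 5 by 2-fold (median −1.09, range −1.44 to 0.56). PGK1 (ENSG00000102144), the first ATP-yielding kinase, was measured at 294 and 589 CPM in DU145 (ratio 2.005, interval 1.95 to 2.06), and in PC-3 at 949 and 358 CPM (ratio 0.377, interval 0.368 to 0.386). PGAM1, a mutase, was measured at 411 and 602 CPM in DU145 and in PC-3 at 399 and 147 CPM (ratio 0.367, interval 0.354 to 0.381). These 2 genes had the lowest PC-3 ratios of the stretch.

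TPI1, triose phosphate isomerase, was measured at 431 and 637 CPM in DU145 and in PC-3 at 558 and 262 CPM. ENO1, the ubiquitous enolase, was measured at 2122 and 2615 CPM in DU145 and in PC-3 at 2869 and 1327 CPM. PKM, pyruvate kinase, was measured at 1797 and 3074 CPM in DU145 and in PC-3 at 2834 and 1401 CPM. These 3 were within 2-fold in DU145 and lower by 2-fold in PC-3, though PKM in PC-3 was at −0.99 under TMM scaling. GAPDH, often used as a reference gene, was measured at 1108 and 1556 CPM in DU145 and in PC-3 at 1821 and 1346 CPM, ratios of 1.40 (1.38 to 1.42) and 0.739 (0.729 to 0.749). A ratio to GAPDH would therefore move the other genes by unequal amounts in the 2 lines.

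ENO2, the neuronal enolase, was the exception to the PC-3 pattern. Its level was 73.2 and 88.0 CPM in DU145, against 79.8 and 118 CPM in PC-3 (ratio 1.48, interval 1.40 to 1.56). The ratio of ENO2 to ENO1 was 0.0345 and 0.0336 in DU145 and went from 0.0278 to 0.0891 in PC-3. Several of these genes have processed pseudogenes, but the listed ones were small: 13 for GAPDH held at most 0.360% of its level in any library, 6 for PGAM1 5.76% and 2 for TPI1 2.87%.

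LDHA had a wider gap between the changes in the lines than any other of the 24 glycolysis, lactate and kinase members. LDHA (ENSG00000134333), the subunit that favours lactate formation, was measured at 572 and 1305 CPM in DU145 (ratio 2.28, interval 2.24 to 2.33), and in PC-3 at 2126 and 652 CPM (ratio 0.306, interval 0.301 to 0.312). LDHB, the subunit that favours pyruvate, was measured at 393 and 529 CPM in DU145 and in PC-3 at 307 and 184 CPM. LDHA per LDHB went from 1.46 to 2.47 in DU145 and from 6.94 to 3.54 in PC-3. Per kilobase of exon that ratio was 0.699 and 1.19 in DU145 and 3.33 and 1.70 in PC-3, where the length is that of all annotated exons together, 6.21 kb for LDHA and 2.98 kb for LDHB, and not that of the transcripts in these cells. In DU145 with DMSO, LDHA was thus below LDHB by this measure and above it by CPM, so the order of the subunits there depends on the length used. The change of the ratio does not.

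Pyruvate dehydrogenase kinases keep pyruvate out of the mitochondrial citrate cycle. PDK1 (ENSG00000152256), a HIF target, was measured at 24.5 and 34.4 CPM in DU145 (ratio 1.40, interval 1.27 to 1.55), and in PC-3 at 64.9 and 21.7 CPM (ratio 0.334, interval 0.304 to 0.366). PDK2 was measured at 22.9 and 11.4 CPM in DU145 (ratio 0.497, interval 0.434 to 0.569), and in PC-3 at 30.7 and 22.2 CPM (ratio 0.721, interval 0.650 to 0.800). PDK2 was thus lower in both lines. In DU145 it missed 2-fold on the log2(CPM + 1) scale and reached −1.002 with a pseudocount of 0.1. PDK3 was measured at 7.76 and 8.82 CPM in DU145 and in PC-3 at 9.48 and 6.01 CPM. The PDK2 to PDK1 ratio went from 0.935 to 0.331 in DU145 and from 0.474 to 1.02 in PC-3, in opposite directions.

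**Figure D3:**
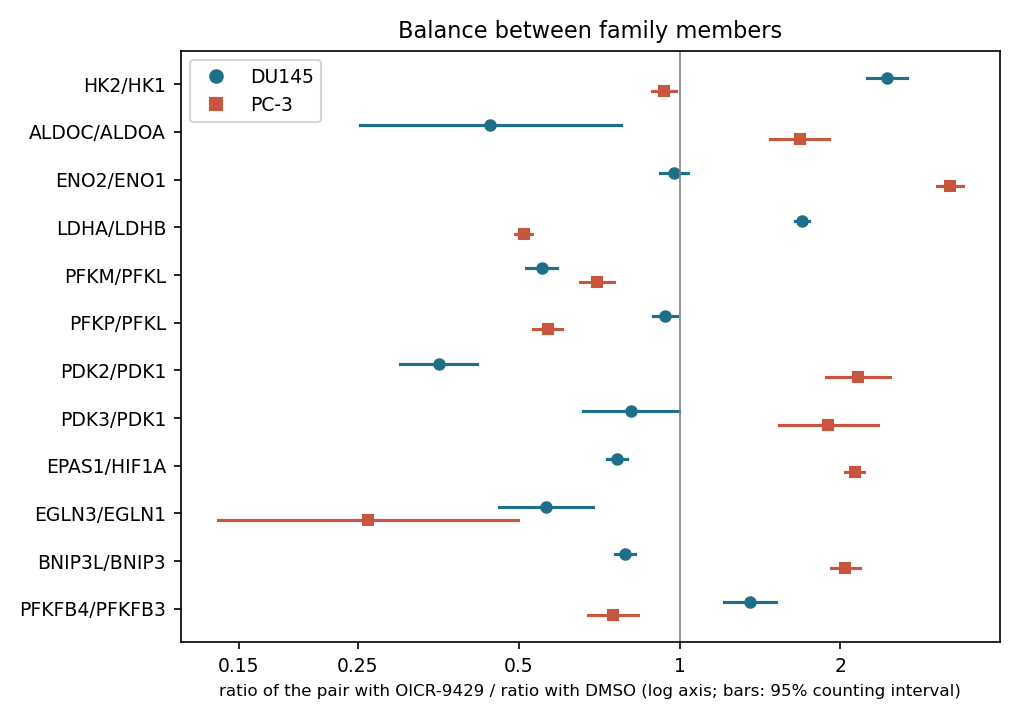
Ratio of a pair of related genes with OICR-9429 divided by the same ratio with DMSO, on a log axis; circles are DU145, squares PC-3, and bars an approximate 95% counting interval. LDHA/LDHB lies at 1.69 in DU145 and 0.511 in PC-3, and ENO2/ENO1 at 0.975 and 3.20.

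Summed over the 15 genes of the 10 glycolytic steps, the share of reads went from 0.820% to 1.19% in DU145 and from 1.19% to 0.688% in PC-3. The treated DU145 library thus held about the share that the PC-3 control held. For the pair of lactate dehydrogenase genes the share went from 0.0964% to 0.183% in DU145 and from 0.243% to 0.0836% in PC-3. The order of the lines differed between the treatments. Of 17 genes of upper and lower glycolysis and lactate dehydrogenase, 13 were higher in PC-3 than in DU145 with DMSO and 5 with OICR-9429 (counting intervals that exclude 1). For 8 of the 17 PC-3 was higher with DMSO and DU145 with OICR-9429, and for 0 the reverse, where all genes had 6.30% and 8.62%. Of 2461 genes over 100 CPM on average, 13.1% and 8.41% did so. LDHA in DU145 was 0.269 times its PC-3 level with DMSO and 2.002 times with OICR-9429. The DMSO levels enter both the order and the changes, so the 2 are not independent.

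**Figure D4:**
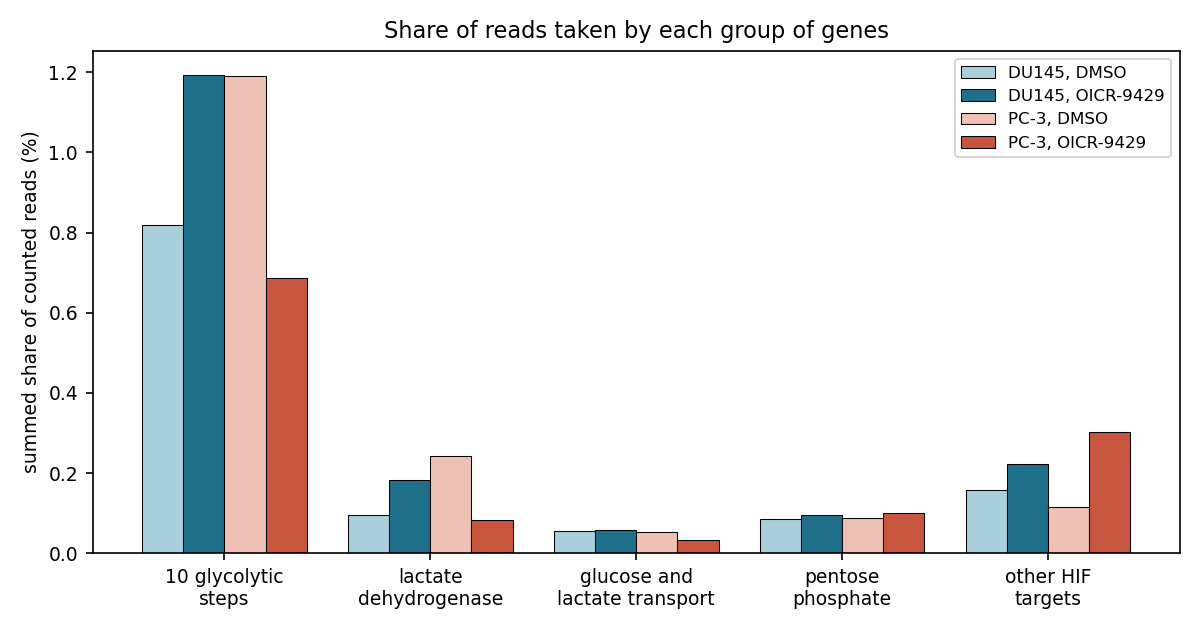
Summed share of counted reads in percent for 5 groups of members, with 1 bar for each library; light bars are DMSO and dark bars OICR-9429. The bars of the 10 glycolytic steps are at 0.820% and 1.19% in DU145 and at 1.19% and 0.688% in PC-3, while those of the pentose phosphate genes lie between 0.0854% and 0.101%.

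The pentose phosphate members did not follow glycolysis in PC-3. PGD, which yields NADPH from 6-phosphogluconate, was measured at 184 and 315 CPM in DU145 (ratio 1.71, interval 1.65 to 1.77), and in PC-3 at 283 and 333 CPM (ratio 1.18, interval 1.14 to 1.21). TALDO1, transaldolase, was measured at 140 and 177 CPM in DU145 and in PC-3 at 150 and 166 CPM. TKT, transketolase, was measured at 530 and 463 CPM in DU145 and in PC-3 at 456 and 510 CPM. The 3 genes were thus 1.11 to 1.18 times their DMSO level in PC-3, and 0 of 3 passed 2-fold in either line as deposited. Among the 8 measured pentose phosphate and NADPH genes of a related list, 0 were past 2-fold in DU145, where 9.01% of all genes were, so this count does not set the list apart. In PC-3, 5 of the 8 were above 0 and 3 below (RPE at −0.29, RPIA at −0.23 and TIGAR at −0.36). There 2 of the 8 were higher by 2-fold, against 7.15% of all genes, namely PGLS, a lactonase of the pathway, at 33.8 and 77.7 CPM, and IDH1, a cytosolic NADPH source, at 77.0 and 191 CPM.

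The HIF alpha subunits went in opposite directions to each other in PC-3, while in DU145 HIF1A was nearly level and EPAS1 lower. HIF1A was measured at 554 and 572 CPM in DU145 (ratio 1.03, interval 1.01 to 1.05), and in PC-3 at 662 and 441 CPM (ratio 0.667, interval 0.652 to 0.682). EPAS1, which encodes HIF-2 alpha, was measured at 228 and 179 CPM in DU145 (ratio 0.787, interval 0.758 to 0.816), and in PC-3 at 195 and 277 CPM (ratio 1.42, interval 1.37 to 1.47). EPAS1 per HIF1A therefore went from 0.411 to 0.313 in DU145 and from 0.295 to 0.627 in PC-3. After rescaling, the DU145 changes were 0.28 and 0.27 for HIF1A and −0.11 and −0.12 for EPAS1 (median-of-ratios, then TMM). HIF alpha subunits are controlled mainly as proteins, which were not measured. EGLN1, the main oxygen sensor, was measured at 153 and 191 CPM in DU145 and in PC-3 at 68.4 and 80.8 CPM. EGLN3, a hydroxylase that HIF itself induces, was low, at 8.26 and 5.80 CPM in DU145 and in PC-3 at 1.40 and 0.432 CPM, and stood lower in both treated libraries.

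The other HIF targets split. NDRG1 (ENSG00000104419), a stress-responsive gene, was the 1 member higher by 2-fold in both lines, at 214 and 443 CPM in DU145 (ratio 2.07, interval 2.01 to 2.14), and in PC-3 at 453 and 2094 CPM (ratio 4.63, interval 4.54 to 4.72). Of 13566 genes at 1 CPM or more in a library of each line, 38 were higher by 2-fold in both lines. Another 313 genes and 0 of the 39 members were lower by 2-fold in both. DDIT4 (ENSG00000168209), the mTORC1 inhibitor REDD1 that HIF, p53 and ATF4 can induce, was measured at 112 and 85.0 CPM in DU145 (ratio 0.757, interval 0.718 to 0.799), and in PC-3 at 7.30 and 86.6 CPM (ratio 11.9, interval 10.3 to 13.7). DDIT4 was thus 15.4 times (13.4 to 17.8) higher in DU145 than in PC-3 with DMSO, and with OICR-9429 the ratio was 0.982 (0.928 to 1.04). VEGFA, the angiogenic factor, was measured at 637 and 787 CPM in DU145 and in PC-3 at 193 and 352 CPM, higher in both treated libraries.

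BNIP3 and BNIP3L, receptors of mitophagy, differed in PC-3. BNIP3 was measured at 178 and 313 CPM in DU145 (ratio 1.76, interval 1.70 to 1.82), and in PC-3 at 177 and 120 CPM (ratio 0.682, interval 0.653 to 0.713). BNIP3L was measured at 324 and 452 CPM in DU145 and in PC-3 at 108 and 151 CPM, a ratio of 1.39 in each line. BNIP3L overlaps exons of PNMA2 on the opposite strand, which was measured at 279 and 252 CPM in DU145 and in PC-3 at 4.40 and 6.12 CPM. P4HA1, a collagen prolyl hydroxylase subunit, was measured at 105 and 136 CPM in DU145 and in PC-3 at 193 and 195 CPM. ADM, the vasodilator peptide adrenomedullin, was measured at 4.93 and 6.08 CPM in DU145 and in PC-3 at 25.3 and 20.7 CPM.

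CA9 and ANKRD37, both HIF targets, were at low levels. CA9, carbonic anhydrase 9, was listed in PC-3 only, at 0.205 and 0.0360 CPM (6 and 1 read pairs, ratio 0.176 with an interval of 0.00382 to 1.45), where 3 read pairs correspond to 0.102 and 0.108 CPM. Its exons overlap ARHGEF39, which stood at 4.61 and 1.80 CPM in PC-3. ANKRD37 was measured at 1.12 and 1.41 CPM in DU145 and in PC-3 at 1.13 and 2.12 CPM, and overlaps UFSP2 at 8.23 to 13.8 CPM on the opposite strand. As the strand setting of the counting is not given, reads of such partners cannot be told apart.

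**Figure D5:**
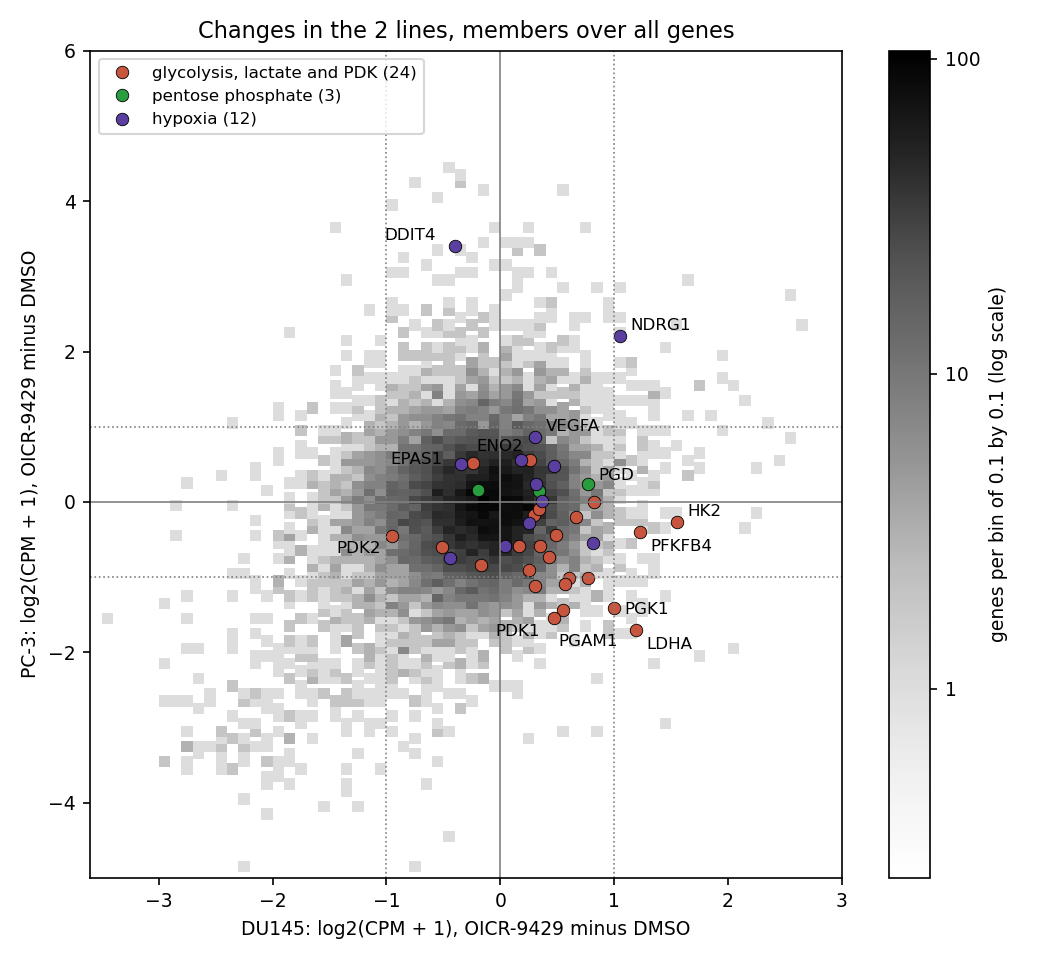
Change in DU145 (x axis) against change in PC-3 (y axis), each the treated minus the DMSO value of log2(CPM + 1); grey squares count the 13566 genes at 1 CPM or more in a library of each line and coloured points are 39 members. LDHA and PGK1 lie past 2-fold at lower right, NDRG1 at upper right and DDIT4 at top left of centre.

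Set side by side, 19 of the 39 members had intervals above 1 in DU145 and below 1 in PC-3, against 9.63% of all genes. Over 100 CPM this held for 16 of 27 members, against 22.6% of all such genes. Against 16.4% of all genes, 3 of the 39 had the reverse (EPAS1, DDIT4 and, as deposited but not after either rescaling, TKT). Over 100 CPM the reverse held for 2 of 27 members, against 14.8% of all such genes. A further 7 of the 39 were above 1 in both, against 12.4% of all genes (ENO2, PGD, TALDO1, EGLN1, VEGFA, BNIP3L and NDRG1). Of genes over 100 CPM, 24.7% were above 1 in both, against 6 of 27 members, so the members' share was not raised at this level. Another 4 were below 1 in both, against 20.9% of all genes (PFKM, PDK2, EGLN3 and, as deposited but not after either rescaling, SLC2A1). Over 100 CPM this held for 1 of 27 members, also a smaller share than that of all such genes. For 6 members an interval included 1. Opposite sides of 1 with at least 2-fold in a line were seen for 11 members, against 5.66% of all genes. By the size rule, LDHA and PGK1 stood above their control in DU145 and below it in PC-3, that is 5.13% of members against 0.111% of the 13566 genes. A change above 0 in DU145 and below 0 in PC-3 was seen for 53.8% of members and 17.4% of all genes. The difference between the lines could not be tested, since 4 libraries leave no degree of freedom for it.

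Across both lines, with line as the unit of replication, 0 of 39 members passed the test (limma on log2(CPM + 1), adjusted p under 0.05), where 0.120% of 14976 genes rose and 1.16% fell. At an unadjusted p under 0.05 limma gave 2 members, against 8.89% of all genes, and edgeR on the recovered read pairs 1, against 8.09%. DESeq2 had 2 members at an unadjusted p under 0.05, against 8.02% of all genes. These counts were below the all-gene shares. The only residual in these fits is the difference of the response between the lines, and the members were chosen with that difference known. Members whose lines moved apart tend to have a small average and a large residual, so low counts are no result about the members. DESeq2 called 1 member, NDRG1, where 0.394% of all genes rose. NDRG1 had an average change of 1.63 ± 0.45 (SE, limma, adjusted p = 0.126), with higher values in 2 of 2 lines. Its adjusted p was 0.00303 with DESeq2, 0.314 with edgeR and between 0.101 and 0.263 in the other limma fits that kept the line term. DDIT4 had 1.50 ± 0.60 (limma, adjusted p = 0.423), an average of a lower DU145 and a higher PC-3 value. PFKM at −0.56 ± 0.30 (limma, adjusted p = 0.663) and PDK2 at −0.70 ± 0.38 (limma, adjusted p = 0.665) were lower in 2 of 2 lines and did not pass. The errors come from 1 residual degree of freedom and 12.8 prior degrees of freedom, so they reflect mostly the trend over all genes.

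Of 78 further genes of the same pathways, 76 were listed. In DU145, 3 of 72 measured were higher by 2-fold (4.17%, against 0.999% of all genes) and 4 lower (5.56%, against 8.01%). In PC-3, 7 of 67 were higher (10.4%, against 7.15%) and 7 lower (10.4%, against 8.68%). The shares of this list were thus near those of all genes in PC-3, and among the lower genes in DU145. At the entry of pyruvate into mitochondria, 2 of 11 genes were lower in PC-3 (18.2%, against 8.68% of all genes). These were DLAT and DLD, subunits of the pyruvate dehydrogenase complex, at 119 and 41.4 CPM and at 121 and 54.1 CPM. PDK4, another pyruvate dehydrogenase kinase, was the 1 of 11 lower in DU145 (9.09%, against 8.01%), at 13.7 and 4.92 CPM. In PC-3 PDK4 stood at 4.88 and 7.66 CPM. Of 10 HIF regulators measured in PC-3, 1 was higher (10.0%, against 7.15% of all genes). This was VHL, which targets hydroxylated HIF alpha for destruction, at 85.9 and 190 CPM. In DU145 VHL was measured at 81.5 and 77.8 CPM. Among 24 further HIF targets, 3 were higher in DU145 (12.5%, against 0.999% of all genes) and 1 lower (4.17%, against 8.01%). Of the 23 measured in PC-3, 2 were higher (8.70%, against 7.15%) and 4 lower (17.4%, against 8.68%). AK4, an adenylate kinase, and PLOD2, a collagen lysyl hydroxylase, were lower in PC-3, at 121 and 47.7 CPM and at 239 and 70.1 CPM. In DU145 the same genes were within 2-fold above their DMSO level, at 73.8 and 119 CPM and at 542 and 762 CPM.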

How the data were processed

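RNA of 4 libraries was measured, 1 for each line and treatment, grouped by the labels' titles. The authors deposited 1 value per Ensembl gene identifier and library. The values summed to between 999788 and 999896 per library and are taken as CPM, while the deposited headers say only that they are normalized. HISAT2 2.1.0, HTSeq 0.6.1, bcl2fastq 2.19.1 and the build hg19 are named, without role or order, per the submitters' processing notes. Which gene annotation was counted is not stated there. Within a library 100% of values were whole multiples of 1 step (tolerance 0.01 step), and even, except values of exactly 1 step, which were set to 0 reads. Read pairs were recovered as these multiples divided by 2. Of 27658 identifiers 27302 matched a current symbol. Identifiers listed for one line only have no value in the other.

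Ratios carry exact conditional binomial 95% intervals, and ratios of pairs approximate ones. These cover counting error only, since PCR copies cannot be told from molecules. Exon length and overlaps came from GENCODE 29 (GRCh38), used for length and names. Where a gene has several RefSeq promoter windows, the one with most GENCODE 29 transcript starts within 50 bases was used, and 36 of 37 read in the direction of their own transcript. For the test across lines, log2(CPM + 1) was modelled by line and treatment (limma 3.58.1, trend) over 14976 genes at 1 CPM or more in at least 2 libraries, with Benjamini-Hochberg adjustment over all of them, and edgeR 4.0.16 and DESeq2 1.42.0 on recovered read pairs were alternatives. Fits were also run on simulated counts. There each changed gene had the same change in both lines, so genes whose lines respond differently were not covered. Whether the samples of the lines are separate cultures is not stated, so p-values speak for these libraries only. In limma they rest mostly on the trend over all genes, with 1 residual degree of freedom from the difference of the response between lines. Members and lists were chosen with earlier results of these data known. Named are members past 2-fold, the largest differences between lines and main enzymes, and related genes past 2-fold. Some genes of the related lists are not reported here.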

Additional observations from a re-analysis of the deposited data

Results flagged for a closer look

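For 11 members the lines went opposite ways, with a counting interval that excludes 1 in each line and a change of at least 2-fold in at least 1. That is 28.2% of the 39 measured members, against 5.66% of all genes. Over 100 CPM on average this held for 7 of 27 members, against 6.79% of all such genes. The members were chosen with this difference known, so the shares are a description. With 1 library for each line and treatment the difference between lines was not tested, and dose and medium differ with the line. The difference of the log2(CPM + 1) changes, DU145 minus PC-3, was 2.89 for LDHA, 2.41 for PGK1, 2.01 for PDK1, 1.99 for PGAM1, 1.82 for HK2 and 1.79 for PKM. It was 1.65 for TPI1, 1.62 for both GPI and PFKFB4, and 1.41 for ENO1. DDIT4 had the opposite sign, at −3.80.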

How the results depend on the processing

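Members past 2-fold in DU145 numbered 5 as deposited and 9 under median-of-ratios scaling, and 5 to 7 under TMM, a pseudocount of 0.1, a minimum of 5 CPM and no minimum. Over all genes, 161 were higher and 1291 lower as deposited, and 330 and 832 under median-of-ratios. The members' DU145 median of 0.34 was 0.58 under median-of-ratios and 0.57 under TMM scaling, a shift that these factors add by construction. In PC-3 the members' count was 8 to 11 against 10, and their median −0.28 to −0.42 against −0.40. Members past 2-fold in opposite directions numbered 2 or 3, and by counting intervals 22 to 24. The count of members that passed across both lines was 0 in the limma and edgeR fits and 1 with DESeq2. Without the line term, that is with no replicate block, it was also 0, with 0 of all genes called (230 at an unadjusted p under 0.05, limma), against 18 risen and 173 fallen with it. Over all genes edgeR called 10 risen and 112 fallen and DESeq2 59 and 242. Leaving out a library leaves 1 line with no residual degree of freedom, so it gives no test. Depth limits SLC2A3, CA9, ANKRD37, EGLN3 and, in DU145, ALDOC.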

Other observations

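Of 21 listed genes for other isoforms and side branches, 0 of 19 measured were higher by 2-fold in DU145 and 2 lower (10.5%, against 8.01% of all genes). In PC-3, 2 of 15 were higher (13.3%, against 7.15%) and 1 lower (6.67%, against 8.68%), so the list was near the shares of all genes. SLC16A7, a monocarboxylate transporter, was lower by 2-fold in DU145 (−1.06), at a low level of 2.03 and 0.457 CPM (56 and 13 read pairs). In PC-3 it was at −0.90, with 28.7 and 14.9 CPM. PFKFB2, ADPGK and G6PC3 had changes between −0.07 and 0.14 in both lines. LDHD, a D-lactate dehydrogenase, was at 3.77 (DMSO) and 0.492 CPM (OICR-9429) in DU145, and in PC-3 at 1.88 and 5.68 CPM, past 2-fold in opposite directions. PCK2, the mitochondrial enzyme that makes phosphoenolpyruvate, was measured at 101 and 75.0 CPM in DU145 and in PC-3 at 11.9 and 60.8 CPM, a PC-3 ratio of 5.09 (4.54 to 5.73). FBP1, the gluconeogenic fructose bisphosphatase, was measured at 9.71 and 8.26 CPM in DU145 and in PC-3 at 17.9 and 4.14 CPM.

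Among further HIF targets, ANGPTL4, an inhibitor of lipoprotein lipase, was measured at 12.0 and 63.0 CPM in DU145 and in PC-3 at 3.24 and 2.81 CPM. LOX, a collagen cross-linking oxidase, was measured at 39.5 and 103 CPM in DU145 and in PC-3 at 5.12 and 6.15 CPM. MXI1, an antagonist of MYC, was measured at 51.0 and 35.3 CPM in DU145 and in PC-3 at 17.9 and 69.6 CPM. BHLHE40, a transcriptional repressor, was measured at 35.8 and 86.7 CPM in DU145 and in PC-3 at 168 and 325 CPM. Across both lines none of these 4 genes passed in limma as reported. BHLHE40, higher in 2 of 2 lines (1.10 ± 0.30 SE), had an adjusted p = 0.128 in limma, and from 0.0864 to 1.0 over the alternatives.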
